A study of Mus musculus with 13 samples.

Results

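The heme biosynthesis enzymes described here are 8 genes of the pathway, Alas1, Alas2, Alad, Uros, Urod, Cpox, Ppox and Fech, out of all genes with a name in the count tables. They were chosen by name, and their raw counts of unique molecular identifiers (UMIs) were read in all barcodes with at least 1500 UMIs. This gave 95563 cells of mouse liver in 13 libraries. Of these, 41980 belonged to 5 cell types defined by marker genes: 1702 hepatocyte-like cells, 3850 Kupffer cell-like cells, 9210 macrophage-like cells, 4973 biliary epithelial cell (BEC)-like cells and 22245 liver sinusoidal endothelial cell (LSEC)-like cells. Levels are given as CPM, the UMIs of a gene per 1000000 UMIs, of the summed cells of a type in a library, for libraries with at least 20 such cells unless another number is given.

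Male C57BL/6J mice of 6 to 12 weeks were fed the porphyrinogenic compound DDC (3,5-diethoxycarbonyl-1,4-dihydrocollidine) at 0.1% of the chow for 3, 5, 9, 19 or 25 days, or stayed on chow without DDC (D0). Each time point has 1 library of isolation protocol A (sorted living Cd45+, Lyve-1+, Pdpn+, Epcam+ and Cd31+ cells and cells with retinoid autofluorescence) and 1 of protocol B (living cells of a stellate cell preparation with sorted dendritic, Epcam+ and Cd3e+ cells), named here as D0 A or D19 B. D3 and D5 are onset, and D9, D19 and D25 are progression. A single library of protocol B, named STOP, comes from DDC feeding followed by 7 days of recovery. The labels give 18 diet days in one place and 19 in another, and the label of D19 B gives 18. No gate selected hepatocytes, so the hepatocyte-like cells are those that came through a preparation made for other cells. Which mouse went into which library is not given in the labels, so SDs and p-values measure the spread between libraries only. The libraries held 1541 to 14764 cells and 29307190 to 108602421 UMIs, with a median of 3350 to 12013 UMIs per cell, and 1104 barcodes (1.17% of the distinct ones) occurred in more than 1 library.

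Heme is made from glycine and succinyl-CoA by enzymes that start in the mitochondrion, continue in the cytosol and end in the mitochondrion again. The first step, 5-aminolevulinate synthase, limits the rate and exists as a housekeeping isozyme (Alas1), which heme holds down in liver, and an erythroid isozyme (Alas2). Alad, Uros and Urod work in the cytosol on the way to coproporphyrinogen, Cpox and Ppox make protoporphyrin, and Fech, ferrochelatase, inserts iron. DDC is known for giving rise in liver to an alkylated protoporphyrin that blocks ferrochelatase, and for the porphyria and bile duct injury that follow.

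The isozymes Alas1 and Alas2 catalyse the same step. A short stretch of each promoter is shown for that reason, with a motif that is known from the one or the other isozyme's control. Promoters (250 bases before to 50 after a start) came from RefSeq on GRCm38.p6, which gave 10 entries for 7 of the 8 genes. The Alas1 stretch lies at chr9:106247906-106247935 on the minus strand, and the Alas2 stretch at chrX:150547319-150547348 on the plus strand. The capitals mark CGCATGCG, the core of the motif of nuclear respiratory factor 1, in Alas1. In Alas2 they mark, on the other strand, the motif AGATAA of erythroid zinc finger factors.
Alas1: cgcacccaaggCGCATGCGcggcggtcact
Alas2: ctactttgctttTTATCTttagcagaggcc
The first motif, its own reverse complement, starts 194 bases before one annotated start of Alas1 and 30 bases after the other. The motif in Alas2 starts 86 bases before the start of Alas2. On both strands, CGCATGCG was found in 1.87% of 32851 mouse promoters of this length and among these genes in Alas1 only, while AGATAA was found in 11.2% of promoters and among these genes in Alas2 and Cpox. These matches are descriptions of the letters and not of binding.

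By the mean over all libraries (D0, DDC and STOP together), hepatocyte-like cells held the most Alas1, Alad, Urod, Cpox and Fech of the 5 types. BEC-like cells held the most Ppox, and the macrophage-like cells stood second for Alas1. The order did not hold in all libraries. In the DDC libraries of protocol A, mean Cpox was lowest in hepatocyte-like cells, at 9.59 CPM (n = 4) against 10.5 CPM in macrophage-like and 29.4 CPM in BEC-like cells. Alas1 in D3 A, D9 A and D25 A was also lower in hepatocyte-like than in macrophage-like cells. In pairwise comparisons over libraries (edgeR quasi-likelihood test on summed UMIs with the library as a block, Benjamini-Hochberg adjustment over all genes), 51 of 70 differences between types were called for the 7 genes tested (65% over all genes and the 10 pairs), as Alas2 did not pass the filter on low counts. Between hepatocyte-like and the other types, 6 of 7 genes were higher in hepatocyte-like cells in each comparison. Over all genes, 24.8% were called higher in hepatocyte-like than in Kupffer cell-like cells, 23.6% against macrophage-like, 23.7% against BEC-like and 32.7% against LSEC-like cells, and 63%, 62.3%, 57.9% and 75% were called in either direction. The median of all genes in these contrasts lay between -0.29 and -0.16 on the log2 scale, and the medians of the 7 genes at 1.61, 1.44, 1.07 and 1.70 in the same order. Among the other pairs, 6 of 7 genes were called between BEC- and LSEC-like cells (77.6% of all genes), 6 between macrophage- and BEC-like (69.5%), 5 between Kupffer cell- and BEC-like (68.9%), 4 between Kupffer cell- and LSEC-like (64.3%), 4 between macrophage- and LSEC-like (73.8%) and 2 between Kupffer cell- and macrophage-like cells (38%). These shares lie above the background in 3 of the pairs and below it in the other 3.

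**Figure D1:**
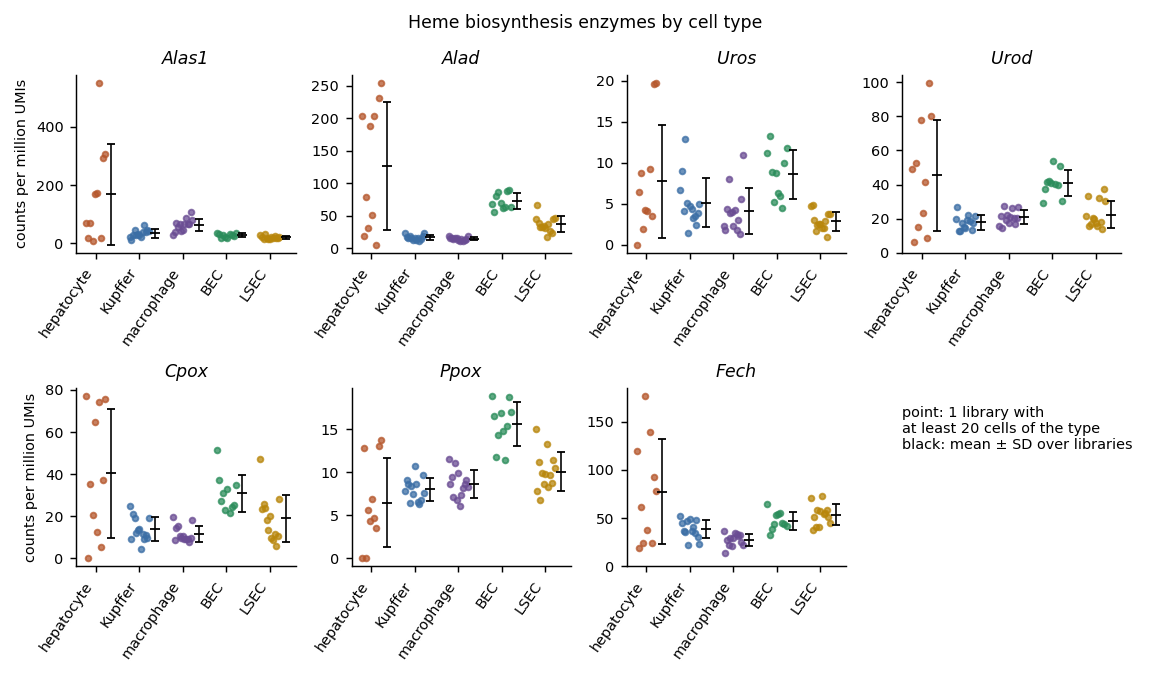
Level of 7 heme biosynthesis genes in the 5 cell types, in CPM on a linear axis that differs between panels. Each point is 1 library with at least 20 cells of the type, and the black mark and bar are the mean and SD over libraries. Hepatocyte-like cells have the largest SD for all 7 genes, such as 174 for Alas1 around a mean of 168.

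Alas1 had a mean level of 168 ± 174 CPM (SD, n = 10 libraries) in hepatocyte-like cells and 62.3 ± 20.8 CPM (n = 13) in macrophage-like cells. It stood at 33.2 ± 14.1 CPM (n = 13) in Kupffer cell-like, 26.8 ± 6.85 CPM (n = 10) in BEC-like and 19.9 ± 5.198 CPM (n = 13) in LSEC-like cells. Each step of this order passed the edgeR test except the last, with log2 differences of 1.34 (adjusted p = 1.40e-05), 1.0 (adjusted p = 8.20e-04) and 0.72 (adjusted p = 0.0131). BEC- and LSEC-like cells differed by 0.24 (SE 0.26, adjusted p = 0.399). Among all 18 named types, neutrophil-like cells came second with 69.3 ± 28.6 CPM (n = 12) and NK or ILC1-like cells last with 8.36 ± 5.18 CPM (n = 13).

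The cytosolic enzymes Alad and Urod followed another order, with BEC-like cells second to hepatocyte-like cells. The same held for Cpox of the mitochondrial end, and the cytosolic Uros had its highest mean in BEC-like cells. Alad, which joins aminolevulinate molecules into porphobilinogen, was at 127 ± 97.9 CPM (n = 10) in hepatocyte-like and 72.6 ± 12.4 CPM (n = 10) in BEC-like cells, a log2 difference of 1.32 (SE 0.22, edgeR adjusted p = 1.17e-06). LSEC-like cells followed with 36.9 ± 12.4 CPM (n = 13), and Kupffer cell-like (17.0 ± 4.01 CPM) and macrophage-like cells (14.8 ± 2.36 CPM) did not differ beyond their spread (edgeR adjusted p = 0.699). Urod, uroporphyrinogen decarboxylase, was at 45.5 ± 32.6 CPM in hepatocyte-like and 40.8 ± 7.69 CPM in BEC-like cells (n = 10 each), with a fitted log2 difference of 0.88 (edgeR adjusted p = 1.59e-05). It was at 17.9 to 22.5 CPM in the other types, whose neighbours in the order did not differ. Uros, uroporphyrinogen III synthase, was low in every type, with 8.59 ± 3.01 CPM in BEC-like, 7.77 ± 6.89 CPM in hepatocyte-like, 5.13 ± 2.99 CPM in Kupffer cell-like, 4.12 ± 2.76 CPM in macrophage-like and 2.87 ± 1.16 CPM in LSEC-like cells. For Uros the mean and the fit differ in sign between hepatocyte-like and BEC-like cells: the mean was higher in BEC-like cells, and the fit, which scales libraries by TMM and weights them by their counts, put hepatocyte-like cells higher by 0.84 (SE 0.25, edgeR adjusted p = 0.00319).

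The mitochondrial end of the pathway divided in the same data. Cpox, coproporphyrinogen oxidase, was at 40.3 ± 30.6 CPM in hepatocyte-like, 30.8 ± 8.91 CPM in BEC-like, 18.9 ± 11.2 CPM in LSEC-like, 13.7 ± 5.76 CPM in Kupffer cell-like and 11.6 ± 3.90 CPM in macrophage-like cells. The last 3 did not differ between neighbours (edgeR adjusted p = 0.696 and 0.348). Fech was at 77.2 ± 54.3 CPM in hepatocyte-like cells, then at 53.3 ± 10.8 CPM in LSEC-like, 47.2 ± 9.44 CPM in BEC-like, 38.5 ± 9.55 CPM in Kupffer cell-like and 27.4 ± 6.52 CPM in macrophage-like cells. Of the neighbours only BEC- and Kupffer cell-like cells missed the threshold (adjusted p = 0.264). Fech was the 1 gene here that was higher in LSEC-like than in BEC-like cells, by 0.47 on the log2 scale (SE 0.12, edgeR adjusted p = 5.11e-04). Ppox, protoporphyrinogen oxidase, stood apart: its mean was lowest in hepatocyte-like cells (6.46 ± 5.14 CPM). The fit put them above Kupffer cell-like cells by 0.43 (SE 0.21, edgeR adjusted p = 0.0637), and above macrophage- and LSEC-like cells as well. For Ppox the mean and the fit thus differ in sign in these pairs, and no difference between hepatocyte-like cells and another type was called. BEC-like cells with 15.6 ± 2.59 CPM were above LSEC-like cells with 10.1 ± 2.26 CPM by 0.41 (SE 0.13, edgeR adjusted p = 0.00376), and macrophage-like (8.60 ± 1.60 CPM), LSEC-like and Kupffer cell-like cells (8.0 ± 1.35 CPM) did not differ between neighbours. Over the 18 types, Fech was highest in erythroid-like cells (99.2 CPM), and Ppox in basophil or mast cell-like cells (19.5 CPM in 2 libraries). That Ppox value rests on 4 UMIs in 51 cells, too few to set it above the 16.2 CPM of neutrophil-like cells (217 UMIs).

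With each cell named singly by its own markers instead of by its cluster, an alternative that changes which cells make up a class, 33 of the 70 differences were called (51.9% over all genes). Hepatocyte-like cells were no longer above BEC-like cells in Alad (log2 difference -0.16), Uros (-0.17) and Cpox (-0.17) or above Kupffer cell-like cells in Uros (-0.090), none of these 4 called. With the marker-rich of the 2 hepatocyte-like clusters only, an alternative chosen after seeing the data, 57 were called (66.8% over all genes), and Alas1 was higher than in macrophage-like, Kupffer cell-like, BEC-like and LSEC-like cells by 2.03, 3.08, 3.74 and 4.16 on the log2 scale.

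As a description over the 18 types, the gene pairs with the highest rank correlation of mean levels were Alad with Urod (Spearman's rho = 0.73) and Uros with Cpox (0.61), while Alas1 and Alad ranked the types without relation (-0.0072). These points share libraries and depth. Among 6673 genes at 50 CPM or more in at least 1 type, those with the pattern most like Alas1 were Prtn3 (rho 0.847), Hsbp1 (0.833) and Znhit1 (0.829), and those most like Alad were Sfxn1 (0.961), Pgrmc1 (0.899) and Lgals4 (0.827). The nearest gene was Grpel1 for Uros (0.901), Tpd52l2 for Urod (0.876), Galk1 for Cpox (0.895), Fbln2 for Ppox (0.810) and Serpina1b for Fech (0.946). This likeness is by rank only, and the type with the highest level can differ. Alas1 was highest in hepatocyte-like cells, but Prtn3 and Znhit1 in monocyte-like and Hsbp1 in BEC-like cells. Fech was highest in erythroid-like and Serpina1b in hepatocyte-like cells.

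The hepatocyte-like cells came from 2 unlike clusters, and most UMIs of the heme genes lay in one of them. The marker-rich cluster (794 cells) had 14 of 15 hepatocyte markers detected, a median of 4593.5 UMIs per cell and 0.873% mitochondrial UMIs, and 742 of its cells came from protocol B, 446 of them from STOP. The marker-poor cluster (908 cells) had 10 of 15 markers detected, a median of 2024.5 UMIs, 39.3% mitochondrial UMIs and 785 cells of protocol A, and hepatocyte markers summed to 4661 CPM in it against 27286 CPM in the marker-rich cluster. Pooled over libraries, Alas1 was at 321 CPM in the marker-rich and 10.8 CPM in the marker-poor cluster, Alad at 247 and 12.6 CPM, Urod at 87.0 and 9.42 CPM, Cpox at 67.1 and 5.38 CPM and Fech at 98.2 and 19.3 CPM. Uros was at 18.4 and 1.79 CPM, and Ppox at 11.9 and 5.83 CPM, the smallest gap of the 7. The part of mitochondrial content, depth and protocol in these gaps was not tested, and a comparison of libraries over both clusters compares different mixtures of them.

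**Figure D2:**
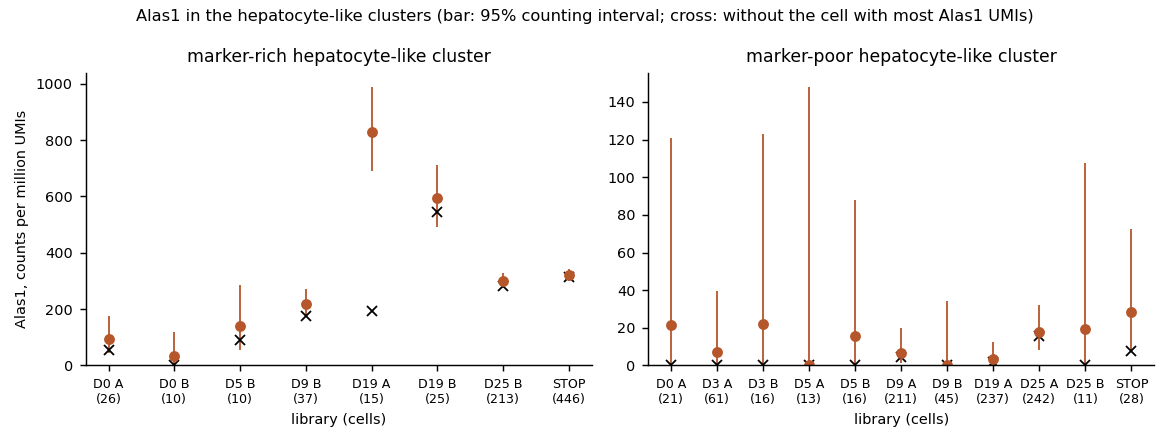
Alas1 in the marker-rich (left) and marker-poor (right) hepatocyte-like clusters, in CPM on linear axes that differ, for libraries with at least 10 cells (number below each name). Points are libraries, bars 95% exact Poisson intervals, and crosses the level without the cell with most Alas1 UMIs. In the marker-rich cluster, both D0 libraries lie below the 5 DDC libraries shown, and in D19 A the cross falls from 828 to 194.

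In the marker-rich cluster, Alas1 was lowest in the D0 libraries among those with at least 10 cells. It was at 93.4 CPM in D0 A (9 UMIs in 26 cells) and 33.0 CPM in D0 B (2 UMIs in 10 cells). Under DDC it was at 139 CPM in D5 B (7 UMIs in 10 cells), 219 CPM in D9 B (37 cells), 828 CPM in D19 A (15 cells), 595 CPM in D19 B (25 cells) and 300.3 CPM in D25 B (213 cells). All 5 DDC libraries with at least 10 cells, a cut chosen after seeing the data, were thus above both D0 libraries. How many of all genes have this order was not counted. A single cell of D19 A held 102 of that library's 124 Alas1 UMIs (82.3%), and without it the library was at 194 CPM. Of the libraries with fewer cells, D9 A had 1 Alas1 UMI in 7 cells (11.5 CPM, below both D0 libraries), D3 A had 2 in 3 cells, D3 B none in 1 cell and D5 A 23 in 1 cell. Pooled over all cells of the cluster, Alas1 was at 70.1 CPM at D0 (95% exact Poisson interval 35.0 to 125, 36 cells), 337 CPM under DDC (315 to 361, 312 cells) and 320.4 CPM in STOP (300.4 to 341, 446 cells); these intervals, like all others given, cover counting error only.

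A fit to this cluster with at least 10 cells per library, chosen after seeing the data, gave Alas1 a log2 fold change of 2.55 (SE 0.71) for DDC against D0, with 2 against 5 libraries. Its unadjusted p was 0.00513 and its adjusted p 0.184 (edgeR), so it was not called. None of the 5 genes tested was, against 0.571% of 3679 genes, while 11.2% of genes had an unadjusted p under 0.05. DESeq2 gave Alas1 2.48 (adjusted p = 0.102) and called none of the 4 genes to which it gave an adjusted p. Leaving out each of the 7 libraries in turn gave edgeR estimates between 2.46 and 3.17. The highest was without D5 B (adjusted p = 0.0672), the 1 onset library, where DDC is progression alone. Without the protocol as replicate block the estimate was 1.89 (adjusted p = 0.325). With no filter on low counts it was 2.84 and called (edgeR adjusted p = 0.0330), against 0.634% of 14832 genes. Progression stood above onset by 1.38 (SE 0.74, adjusted p = 0.901), with 1 onset library and 0.0272% of genes called.

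The other enzymes in the marker-rich cluster were not called. Alad was at 210.3 CPM at D0, 228 CPM under DDC and 265 CPM in STOP, and Urod at 63.7, 92.7 and 83.5 CPM, with overlapping intervals between D0 and DDC for both genes. Fech was at 115 CPM at D0, 117 CPM under DDC and 81.5 CPM in STOP, and Cpox at 89.2, 51.2 and 79.2 CPM. The fitted log2 fold changes for DDC against D0 were 0.10 (SE 0.51) for Alad, 0.08 (SE 0.78) for Urod, -1.24 (SE 0.91) for Cpox and 0.24 (SE 0.90) for Fech. Single libraries moved these values: Fech was at 2.41 without D0 A, 2.48 without D19 A and -1.01 without D0 B, and Alad at 0.66, 0.73 and -0.50 in the same order. D0 A and D19 A are the only libraries of protocol A in this fit. Uros (1 UMI) and Ppox (0 UMIs) were too sparse at D0 for a comparison; a count of 0 in the 156935 UMIs of the D0 cells allows up to 23.5 CPM (upper limit of the exact interval).

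Over both clusters together, the comparison of DDC against D0 in hepatocyte-like cells rested on 1 D0 library (D0 A) and 8 DDC libraries, and called none of the 5 genes tested by edgeR, against 0.446% of 7176 genes. DESeq2 called none as well. At an unadjusted p under 0.05, which 16% of genes had, stood Alad at -2.34 on the log2 scale (SE 0.72, adjusted p = 0.150), Cpox at -2.32 (SE 0.83, adjusted p = 0.200) and Fech at -1.48 (SE 0.65, adjusted p = 0.281). Alas1 was at -0.14 (SE 1.23). The libraries were unlike in their mixture of clusters, and its part in these values was not tested. In D3 A, D9 A and D25 A, with 3, 7 and 0 marker-rich cells, Alas1 was at 19.2, 7.52 and 17.5 CPM. D0 A, with 26 marker-rich and 21 marker-poor cells, was at 70.2 CPM. D9 B, D19 B and D25 B, with 37, 25 and 213 marker-rich cells, were at 168, 552 and 292 CPM. D19 A went the other way, at 174 CPM with 15 marker-rich and 237 marker-poor cells, and it holds the single cell with 102 Alas1 UMIs. Within protocol A, the 4 DDC libraries spanned 7.52 to 174 CPM around the D0 value, and protocol B had no D0 library with 20 cells. For progression against onset, none of the 5 was called (0.111% of all genes) and none had an unadjusted p under 0.05 (5.89% of all genes), with Alas1 at 1.88 (SE 0.99, adjusted p = 0.819). With cells named singly that comparison called 3 genes, Alas1, Alad and Fech, beside 8.98% of 8889 genes.

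In macrophage-like cells Alas1 was higher in every DDC library than in both D0 libraries, without passing the threshold over all genes. It was at 27.5 CPM in D0 A and 38.8 CPM in D0 B. The 10 DDC libraries lay between 42.5 CPM (D5 B) and 106 CPM (D25 B) with a median of 64.6 CPM, and STOP was at 78.8 CPM. Within protocol A the DDC libraries lay at 46.7 to 84.8 CPM and within protocol B at 42.5 to 106 CPM, above the D0 library of the same protocol. How many of all genes separate D0 from DDC libraries in this way was not counted. The log2 fold change was 0.90 (SE 0.37, unadjusted p = 0.0280, adjusted p = 0.184 by edgeR). None of the 7 genes was called by edgeR or DESeq2, against 3.69% of 11953 genes, and 20.5% of genes had an unadjusted p under 0.05. With no filter on low counts Alas1 was called (edgeR adjusted p = 0.0163), beside 4.84% of 24607 genes. The macrophage-like cells of D0 and DDC lay partly in different clusters. A cluster in which Gpnmb and Lpl were not among the detected markers held 88 of 145 cells of D0 A and 122 of 313 of D0 B, and at most 8 of a DDC library. Another, with 44.0% doublet calls, held 1266 of 2900 cells of D9 A. Within the largest cluster, Alas1 was at 30.6 CPM in D0 A (7 UMIs, interval 12.3 to 63.0) and 41.9 CPM in D0 B (interval 30.6 to 56.1). It was at 43.4 to 108 CPM in the 10 DDC libraries. Both D0 intervals held the values of D5 B (43.4 CPM) and D9 A (55.6 CPM), and that of D0 A held D3 B (57.1 CPM) as well. The other clusters held too few cells of D0 or of DDC for this comparison. Over the 19 alternatives the adjusted p ranged from 0.0163 to 0.523 and the log2 fold change from 0.50 (without D0 A) to 1.56 (without D0 B).

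**Figure D3:**
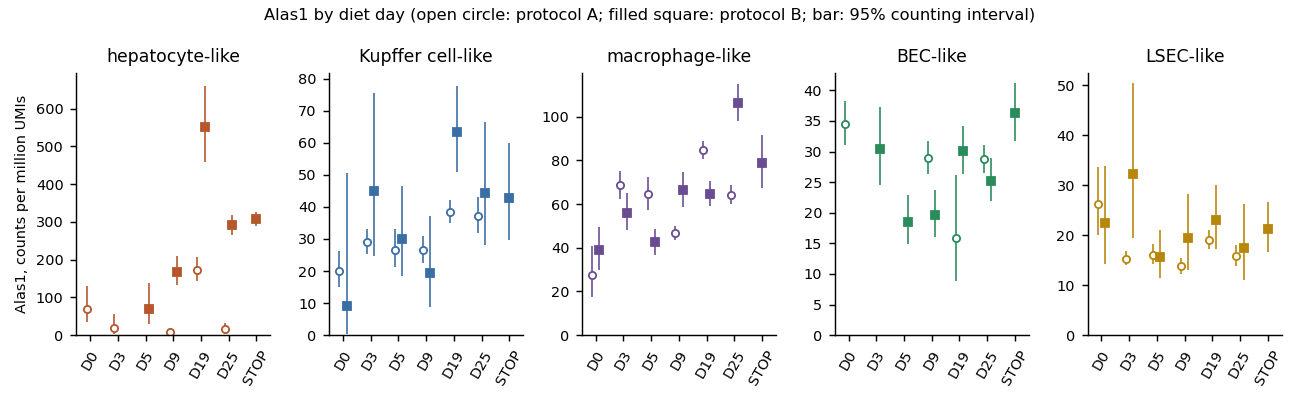
Alas1 level by diet day in the 5 cell types, in CPM on linear axes that differ between panels. Open circles are libraries of protocol A, filled squares of protocol B (STOP included), and bars 95% exact Poisson intervals. In macrophage-like cells all 10 DDC libraries lie above 38.8, the higher of the D0 libraries, and in LSEC-like cells 8 of 10 lie below 22.5, the lower one.

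In Kupffer cell-like cells Alas1 had a higher median under DDC than either D0 library and was not called. It was at 19.99 CPM in D0 A and 9.06 CPM in D0 B, and at 19.5 CPM (D9 B) to 63.4 CPM (D19 B) in the DDC libraries, with a median of 33.6 CPM, and at 42.8 CPM in STOP. A single DDC library, D9 B, was below the higher D0 library, and within each protocol all 5 DDC libraries were above that protocol's D0 library. How many of all genes have such an order was not counted here either. The log2 fold change was 0.99 (SE 0.39, unadjusted p = 0.0208, adjusted p = 0.192 by edgeR). Over the 19 alternatives the adjusted p ranged from 0.116 to 0.838 and the log2 fold change from 0.70 (cells named singly) to 2.37 (without D0 A). None of the 7 genes was called by edgeR or DESeq2, against 2.32% of 10392 genes, with 17.4% at an unadjusted p under 0.05. D0 B rests on 1 Alas1 UMI in 26 Kupffer cell-like cells, with an interval of 0.229 to 50.5 CPM. Kupffer cell-like cells lay in 2 clusters in unlike shares. The smaller, with 30.5% doublet calls, held 49 of 426 cells of D0 A, 159 of 328 of D5 A and 454 of 893 of D9 A. In the larger, Alas1 was at 19.9 CPM in D0 A, 9.88 CPM in D0 B (1 UMI) and 18.4 CPM (D9 B) to 63.9 CPM (D19 B) under DDC, and again D9 B alone was below D0 A. In the smaller, D5 A and D5 B were below D0 A, with Alas1 at 21.3 CPM in D0 A (5 UMIs, interval 6.90 to 49.6), 15.3 CPM in D5 A (27 UMIs) and 0 UMIs in 21 cells of D5 B (interval up to 24.5 CPM).

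Free RNA moved in the same direction, and its part in these values was not tested. In barcodes of 1 to 99 UMIs, which hold no cell, Alas1 was at 17.6 CPM in D0 A and 10.6 CPM in D0 B, at 10.9 to 48.5 CPM in the DDC libraries, of which 8 of 10 were above both, and at 64.1 CPM in STOP. In these barcodes the summed hepatocyte markers were at 2926 CPM in D0 A, 528 CPM in D0 B and 379 to 1567 CPM under DDC. In macrophage-like cells they were at 230 to 427 CPM at D0, 129 to 289 CPM under DDC and 252 CPM in STOP. In Kupffer cell-like cells they were at 226 to 882, 43.9 to 698 and 304 CPM. After thinning each cell to 1500 UMIs, 7.83% ± 2.40 (SD, n = 10) of macrophage-like cells under DDC had an Alas1 UMI. The share was 5.05% ± 2.62 (n = 2) at D0 and 1.90% ± 1.60 (n = 10) in T cell-like cells under DDC. In macrophage-like cells the libraries overlapped after thinning, with 3.93% to 10.8% under DDC and 3.19% to 6.90% at D0. Without thinning the mean shares were 40.2% ± 13.2 in macrophage-like cells under DDC, 12.9% ± 0.710 at D0 and 7.05% ± 5.90 in T cell-like cells under DDC. The median depths were 4790.5 to 20151, 4886 to 5287 and 3035 to 7097 UMIs per cell in the same order. Kupffer cell-like cells under DDC had 4.89% ± 1.82 after thinning, BEC-like cells 3.74% ± 1.58 (n = 8) and LSEC-like cells 2.72% ± 0.732 (n = 10).

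BEC- and LSEC-like cells did not share the higher Alas1 values. In BEC-like cells Alas1 was at 34.5 CPM in D0 A, the 1 D0 library, at 15.9 to 30.5 CPM in 8 DDC libraries and at 36.3 CPM in STOP, a log2 fold change of -0.20 (SE 0.41, edgeR adjusted p = 0.820). In LSEC-like cells it was at 26.2 CPM in D0 A and 22.5 CPM in D0 B and at 13.8 to 32.3 CPM under DDC, with a fold change of -0.29 (SE 0.25, edgeR adjusted p = 0.726). Whether the change in macrophage-like cells differs from that in these types was not tested.

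None of the remaining genes was called in the other cell types. In BEC-like cells Urod was at 29.3 CPM in D0 A and 37.7 to 54.0 CPM in all 8 DDC libraries, and at 30.6 CPM in STOP, with a log2 fold change of 0.74 (SE 0.30, unadjusted p = 0.0306, adjusted p = 0.198 by edgeR). The groups did not overlap, with 1 library at D0, and none of the 7 genes was called by edgeR or DESeq2 (0.954% of 15307 genes were called, 20.8% had an unadjusted p under 0.05). The share of all genes whose 1 D0 value lies outside the DDC range was not counted, so this lack of overlap has no background. Of the BEC-like cells of D0 A, 681 of 777 lay in a cluster that held 5 to 86 cells of each of the 8 DDC libraries. In it Urod was at 26.98 CPM in D0 A and 36.6 to 69.0 CPM in the 5 DDC libraries with at least 20 such cells. In the next largest cluster of D0 A, with 68 of its cells, Urod was at 50.6 CPM there and 41.9 to 51.6 CPM in 7 DDC libraries, so the order was not the same. Hepatocyte markers in BEC-like cells summed to 6620 CPM in D0 A, 1295 to 4027 CPM under DDC and 3142 CPM in STOP, and their part was not tested. In LSEC-like cells Cpox had the lowest unadjusted p of the 7 genes (0.00906), and stood at -1.09 on the log2 scale (SE 0.36, adjusted p = 0.289). Again none was called by edgeR or DESeq2, against 0.167% of 10789 genes called and 10.8% at an unadjusted p under 0.05.

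In LSEC-like cells Cpox was not called for progression against onset, and the libraries of these stages overlapped. The 4 libraries of D19 and D25 were below all D0 and onset libraries. This grouping leaves out D9, a part of progression, and D9 A lay above D5 A and B. How many of all genes have such an order was not counted. Cpox was at 47.3 CPM in D0 A and 23.5 CPM in D0 B, 25.5 and 23.8 CPM in D3 A and B, and 18.04 and 13.2 CPM in D5 A and B. It then stood at 20.05 and 9.75 CPM in D9 A and B, 8.88 and 11.3 CPM in D19 A and B, and 5.59 and 10.6 CPM in D25 A and B, and at 28.0 CPM in STOP. For progression against onset the log2 difference was -0.85 (SE 0.31, unadjusted p = 0.0172, adjusted p = 0.487 by edgeR), and with no filter on low counts it was called (adjusted p = 0.0462), beside 1.34% of 26108 genes. The edgeR fit called none of the 7 genes, as did DESeq2 (0.0371% of all genes called, 8.26% at an unadjusted p under 0.05).

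The LSEC-like cells of the time points lay in unlike shares in 5 clusters. Of the D19 A cells 1523 of 2505 lay in a cluster with 6 cells of D0 A and none of D0 B, and of the D25 A cells 1167 of 3726 in another. A further 2142 cells of D0 A lay in a cluster that was closest to LSEC but was not named, as it held many hepatocyte markers, and there Cpox was at 41.5 CPM. Another cluster closest to LSEC, of 2943 cells, was left unnamed because its leading genes held more markers of another type. In it Cpox was at 19.1 CPM in D19 A, above D5 A at 18.3 CPM, so the order was not kept. STOP was there at 11.5 CPM (4 UMIs), not above D19 B at 16.3 CPM (5 UMIs). Within the largest LSEC-like cluster, Cpox was at 46.2 CPM in D0 A, 19.4 CPM in D0 B (3 UMIs, interval 4.01 to 56.8), 17.1 to 26.6 CPM in the onset libraries, 20.7 and 9.87 CPM in D9 A and B, and 29.9 CPM in STOP. It was there at 9.30 and 10.9 CPM in D19 A and B and 6.45 and 12.1 CPM in D25 A and B, again below the D0 and onset libraries. In 4 further LSEC-like clusters that order was kept in none. In the next largest, D3 B had 0 Cpox UMIs in 20 cells (interval up to 76.5 CPM), while D0 A was at 12.3 CPM (2 UMIs), D0 B at 22.9 CPM, the other onset libraries at 10.7 to 16.6 CPM, D19 A and B at 10.6 and 6.36 CPM, D25 A at 3.88 CPM and D25 B at 0 UMIs in 22 cells. In the cluster after it, D5 B was at 7.72 CPM (5 UMIs in 129 cells, interval 2.51 to 18.02), below D19 A at 11.1 CPM, D19 B at 11.99 CPM and D25 A at 9.23 CPM. In the cluster that held most of D19 A, D19 B was at 16.1 CPM (7 UMIs) and D5 B at 9.12 CPM (1 UMI in 18 cells). In the cluster with 1167 cells of D25 A, D3 B had 0 UMIs in 4 cells, and the other D0 and onset libraries, at 13.2 to 64.7 CPM, were above those of D19 and D25, at 0 to 4.61 CPM. Mitochondrial UMIs of the LSEC-like cells were at 4.12% and 1.51% in D0 A and B, 3.55% to 5.02% at onset, 4.73% and 6.29% in D19 A and B, 10.03% and 3.92% in D25 A and B and 2.82% in STOP. The part of clusters and mitochondrial content in the Cpox values was not tested.

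**Figure D4:**
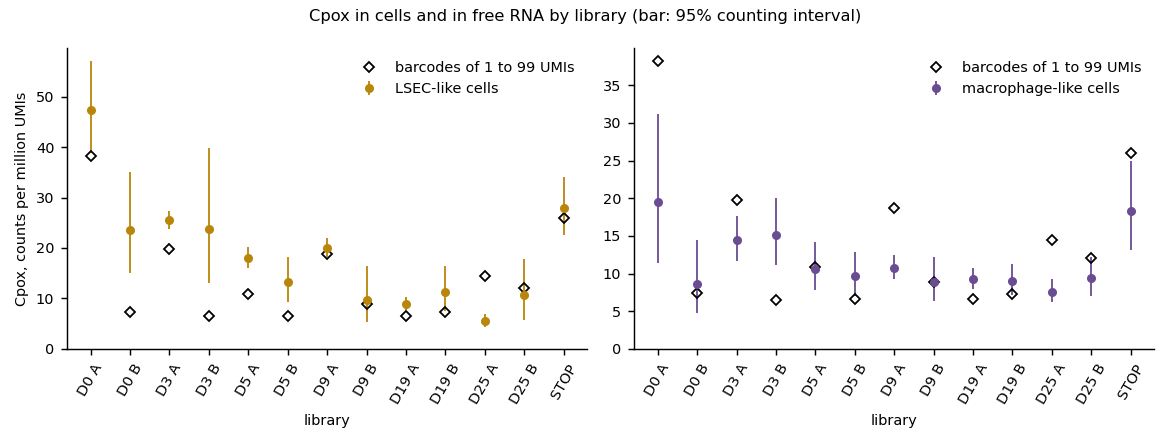
Cpox in LSEC-like (left) and macrophage-like cells (right) by library, in CPM on linear axes that differ, with 95% exact Poisson intervals as bars. Open diamonds are barcodes of 1 to 99 UMIs, which stand for free RNA. In LSEC-like cells the level goes from 47.3 in D0 A to 5.59 in D25 A and is 28.0 in STOP. The diamonds of protocol A are at 38.3 in D0 A, 6.58 in D19 A and 14.5 in D25 A. Those of protocol B are at 7.41 in D0 B and 12.1 in D25 B, while the LSEC-like level is lower in D25 B than in D0 B.

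The same sign for Cpox in progression against onset was found in macrophage-like (-0.43, SE 0.20, unadjusted p = 0.0439), Kupffer cell-like (-0.61, SE 0.28, unadjusted p = 0.0407) and BEC-like cells (-0.53, SE 0.22, unadjusted p = 0.0329), with edgeR adjusted p of 0.408, 0.518 and 0.890. Hepatocyte-like cells had the opposite sign, at 1.01 (SE 0.81, edgeR adjusted p = 0.886), and at 1.60 (SE 1.28, edgeR adjusted p = 0.908) in the marker-rich cluster alone. These cell types come from the same libraries and are not independent. Free RNA held Cpox at 38.3 CPM in D0 A, 6.58 to 19.8 CPM in the DDC libraries of protocol A, 7.41 CPM in D0 B, 6.48 to 12.1 CPM in those of protocol B, and 26.0 CPM in STOP; its part in the values of the cells was not tested. After thinning, a Cpox UMI was found in 1.33% ± 1.02 of LSEC-like and 1.37% ± 0.377 of macrophage-like cells under DDC (n = 10 each), below the 3.15% ± 1.06 of T cell-like cells. Of the other genes, Uros (-0.83, SE 0.32, adjusted p = 0.327) and Fech (0.34, SE 0.15, adjusted p = 0.403) in macrophage-like cells had an unadjusted p under 0.05 for progression against onset. Again no gene was called by edgeR or DESeq2 in macrophage-like (0.1% of all genes), Kupffer cell-like (0.212%) or BEC-like cells (0%), where 11.6%, 8.96% and 5.35% of genes had an unadjusted p under 0.05.

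Alas2 was read mainly in erythroid-like cells and, next to them, in hepatocyte-like cells of STOP. Of 357 Alas2 UMIs in all cells, 271 (75.9%, 95% Clopper-Pearson interval 71.1 to 80.3) lay in 95 of 429 erythroid-like cells, a cluster led by hemoglobin genes that also held platelet genes (Ppbp, Gp9) among its leading genes. Hepatocyte-like cells held 46 UMIs (12.9%) in 42 cells, LSEC-like cells 14, unnamed cells 12, BEC-like cells 8, T cell-like cells 2, and Kupffer cell-, macrophage-, monocyte- and cDC1-like cells 1 each. With cells called as doublets removed, the erythroid-like share was 77.2%. The pooled level was 112 CPM in erythroid-like cells (95% exact Poisson interval 98.9 to 126) and 5.84 CPM in hepatocyte-like cells (4.27 to 7.79).

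Of the 46 UMIs in hepatocyte-like cells, 40 came from STOP, in 36 cells. D0 A gave 1, D0 B 3, D25 A 1 and D25 B 1, and the other 8 libraries none. Of the 36 STOP cells, 35 had no UMI of the 9 erythroid markers in the tables, and all STOP hepatocyte-like cells together held 1 UMI of the hemoglobin genes. In the marker-rich cluster Alas2 was at 25.5 CPM at D0 (6.94 to 65.3, 4 UMIs in 36 cells), 0.400 CPM under DDC (0.0101 to 2.23, 1 UMI in 312 cells) and 13.4 CPM in STOP (9.55 to 18.2, 446 cells). The DDC interval lay below both others, but of the 4 UMIs at D0, 3 came from the 10 cells of D0 B. D0 A alone was at 10.4 CPM (0.263 to 57.8), with an interval that overlaps that of DDC. These are pooled values. Alas2 did not pass the low-count filter of the fits, and a fit to this cluster with no filter did not call it for DDC against D0 (unadjusted p = 0.00735, edgeR adjusted p = 0.443), while STOP, as 1 library, was not tested. The level in D19 B, with 0 UMIs in 31 cells and 3 counts worth 13.9 CPM, could not be told from that of STOP at this depth. Fech in erythroid-like cells was at 87.5 CPM pooled, beside 75.9 CPM in hepatocyte-like cells.

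**Figure D5:**
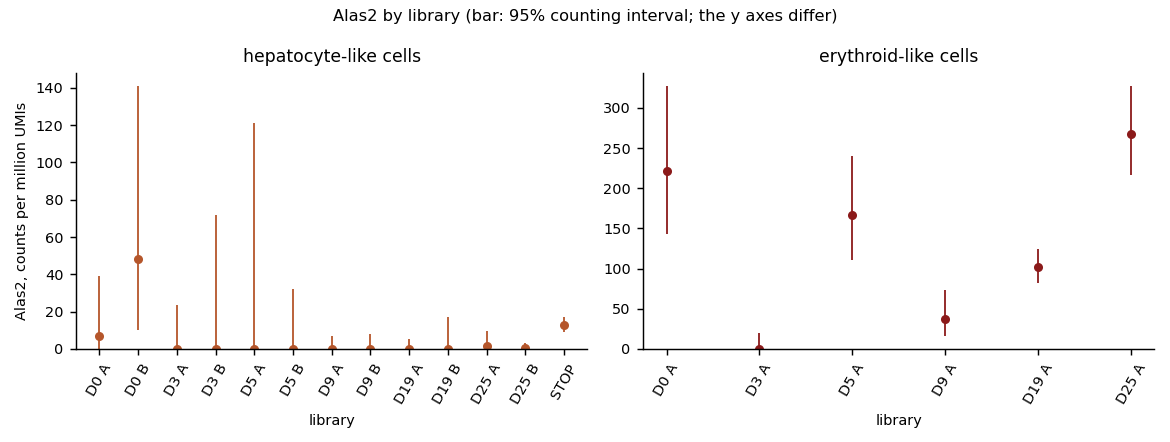
Alas2 by library in hepatocyte-like cells (left, libraries with at least 10 cells) and erythroid-like cells (right, at least 20 cells), in CPM on linear axes that differ, with 95% exact Poisson intervals as bars. In hepatocyte-like cells STOP has a narrow interval above 0, while the libraries with few cells have intervals that reach past it.

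STOP was set beside D19 B, the library of the same protocol nearest to it in diet days, as values of 1 library each with no test. Over the 7 genes and 5 types, the 95% interval of the ratio of STOP to D19 B lay wholly above or below 1 in 16 of 35 cases, 11 higher and 5 lower in STOP: 6 in BEC-like, 5 in macrophage-like, 3 in LSEC-like, 2 in hepatocyte-like and 0 in Kupffer cell-like cells. Among genes of the fit between types with a UMI in both libraries, the share was 48.8% in BEC-like, 33.1% in macrophage-like, 37.9% in LSEC-like, 17.3% in hepatocyte-like and 26.4% in Kupffer cell-like cells, and over the 5 types 20.5% were higher and 13.2% lower in STOP. In hepatocyte-like cells Alas1 was at 307 CPM in STOP and 552 CPM in D19 B, a ratio of 0.556 (0.459 to 0.679), and Fech at 78.2 and 139 CPM, a ratio of 0.561 (0.383 to 0.850). For Alas1 the direction depended on the library set beside STOP. In the marker-rich cluster it was at 320.4 CPM in STOP and 595 CPM in D19 B, but at 219 CPM in D9 B and 300.3 CPM in D25 B. Alad had a ratio of 1.25 (0.921 to 1.73), and the intervals for Uros, Urod, Cpox and Ppox held 1 as well.

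Cpox was higher in STOP in 3 of the 5 types. Its ratio was 2.48 (1.60 to 3.95) in LSEC-like, 2.03 (1.35 to 3.02) in macrophage-like and 1.63 (1.32 to 2.00) in BEC-like cells, and 2.09 (0.926 to 4.77) in Kupffer cell-like cells. In free RNA Cpox was at 26.0 CPM in STOP and 7.33 CPM in D19 B, and the summed hepatocyte markers in free RNA at 6865 and 460 CPM. Uros was higher in macrophage-like (3.66, 2.00 to 6.68) and BEC-like cells (1.98, 1.35 to 2.92), and Alad in macrophage-like (1.70, 1.15 to 2.48) and LSEC-like cells (1.75, 1.30 to 2.38). Urod had opposite directions, with 1.68 (1.17 to 2.46) in LSEC-like and 0.753 (0.627 to 0.903) in BEC-like cells. Fech was lower in BEC-like (0.768, 0.657 to 0.897) and macrophage-like cells (0.713, 0.514 to 0.970). Alas1 had ratios of 1.22 (1.02 to 1.45) in macrophage-like and 1.21 (1.002 to 1.45) in BEC-like cells, and Ppox one of 1.49 (1.12 to 2.00) in BEC-like cells. None of these intervals holds the spread between mice.

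Genes that feed or steer the pathway were read from 4 lists. For DDC against D0 and progression against onset, 3 calls were made in 374 tests over all lists and types (0.802%), beside 0.831% of the tests over all genes. Kupffer cell-like cells had less Tfrc, the transferrin receptor that takes up iron (log2 fold change -1.33, SE 0.33, edgeR adjusted p = 0.0409). Macrophage-like cells had more Hspa9, a mitochondrial chaperone of iron-sulfur cluster assembly (0.76, SE 0.18, edgeR adjusted p = 0.0350), and BEC-like cells had less Ppargc1a, a coactivator known to raise Alas1 in the fasted liver (-2.64, SE 0.40, edgeR adjusted p = 0.0324, with 1 D0 library), each for DDC against D0. Each call depended on single libraries. It was kept for Tfrc in 6, for Hspa9 in 5 of 12 fits that left out 1 library, and for Ppargc1a in 6 of 8, and Tfrc turned to 1.62 (edgeR adjusted p = 0.628) without D0 A. The Tfrc call was also lost without the protocol as replicate block (edgeR adjusted p = 0.102) and by DESeq2 (adjusted p = 0.0729), while Hspa9 and Ppargc1a were called in both. The part in the Ppargc1a call of the hepatocyte markers, which were highest in D0 A among BEC-like cells, was not tested. Within the cluster that held most BEC-like cells of D0 A, Ppargc1a was at 89.3 CPM in D0 A and 29.1 to 59.2 CPM in 5 DDC libraries, and in the next largest cluster of D0 A at 21.4 CPM and 5.97 to 23.0 CPM in 7. None of the 9 to 13 mitochondrial carriers and porphyrin transporters tested in a type and none of the 7 genes of glycine and succinyl-CoA supply was called in either comparison.

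Between types, most suppliers of the substrates and most iron-sulfur genes were higher in hepatocyte-like cells. These counts stand beside the 23.6% to 32.7% of all genes called higher in hepatocyte-like cells, and 38.1%, 38.6%, 34.2% and 42.3% called lower than in Kupffer cell-, macrophage-, BEC- and LSEC-like cells. Of 7 genes of glycine and succinyl-CoA supply, 5 or 6 were higher than in each of the other types, with medians of 1.25 to 2.20 on the log2 scale, and Shmt1, a serine hydroxymethyltransferase that makes glycine, was higher than in macrophage-like cells by 4.26 (SE 0.26, edgeR adjusted p = 8.36e-20). Of 12 iron-sulfur and iron genes, 9 or 10 were higher (medians 0.87 to 1.58). Fdx1, a ferredoxin, was 3.54 above Kupffer cell-like cells (SE 0.25, edgeR adjusted p = 1.60e-17) and Glrx5, a glutaredoxin of cluster transfer, 2.09 (SE 0.21, edgeR adjusted p = 3.82e-12), while Tfrc was lower by 1.97 (SE 0.36, edgeR adjusted p = 5.50e-06). Of 9 regulators of 5-aminolevulinate synthase, 4 or 5 were higher and 2 or 3 lower. Nr1i2, the xenobiotic receptor PXR, exceeded LSEC-like cells by 5.62 (SE 0.41, edgeR adjusted p = 1.70e-16) and Clpx, an unfoldase that acts on the Alas1 protein, by 2.52 (SE 0.21, edgeR adjusted p = 7.73e-15), whereas Bach1, a heme-sensing repressor, was lower by 1.76 (SE 0.19, edgeR adjusted p = 2.88e-11). Of the carriers, 3 to 5 of 12 were higher and 3 to 6 lower, near the shares of all genes. The mitochondrial carrier Slc25a39 was above LSEC-like cells by 2.70 (SE 0.17, edgeR adjusted p = 3.18e-19), and the heme exporter Flvcr1 was below Kupffer cell-like cells by 2.43 (SE 0.27, edgeR adjusted p = 9.20e-11).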

How the data were processed

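Libraries were made with droplet-based 10x Genomics 3′ chemistry. The files the authors deposited are raw counts of UMIs, not normalized, and list all barcodes, empty ones included. The submitters' processing notes name kallisto and GRCm38, and the annotation is not given in the sources used here. A barcode was taken as a cell from 1500 UMIs upwards. Doublets were not removed; as an alternative, cells called by Scrublet were left out (0.649% to 13.8% of a library, with the expected rate as threshold in 9 of 13 libraries, where the automatic one marked too few). Cells were clustered (scanpy 1.11.5 for 2000 variable genes, the heme genes and lists left out; 40 principal components, 25 neighbours, Leiden resolution 1.5) into 63 clusters, which were named from marker genes found in at least 10% of the cluster's cells at 2-fold the other cells, with at least 3 markers; 18 types were named.

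UMIs were summed per library and type (at least 20 cells) and tested by edgeR 4.0.16 in R 4.3.3 (TMM, filterByExpr, quasi-likelihood test, Benjamini-Hochberg over all genes, threshold 0.05). The diet fits hold the isolation protocol as a term, which is also the replicate block, and stages as groups; the fit between types holds the library as a block. The SE of a log2 value was derived from it and its quasi-likelihood F. STOP was compared by exact intervals (95%) with no test. A floor of 3 counts was used where a count was 0. The main edgeR diet fits and the contrast of hepatocyte-like with LSEC-like cells were tested on simulated data first. The other contrasts between types, the fit to the marker-rich hepatocyte-like cluster and the alternatives were not. How often these fits would call a true change is not given, so a lack of calls does not exclude a change. Alternatives were DESeq2 1.42.0, no low-count filter, 3000 UMIs per cell, Scrublet calls removed, cells named singly, no replicate block, 50 cells per library and leaving out each library.

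The 8 genes and the lists were chosen with earlier results of these data known. Named are the 8 genes, list genes called in a diet comparison (at most 3 in each direction), the 3 genes most like each heme gene over the types, and for the types examples among the 3 most significant of a list in each direction, picked after their values were seen. Values within single clusters of LSEC-, BEC-, macrophage- and Kupffer cell-like cells were added after seeing the data. Intervals and CPM rest on 1541 to 14764 cells per library, and precision on the cells of a type.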

Additional observations from a re-analysis of the deposited data

Results flagged for a closer look

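Of 62 groups of 4 to 10 libraries, 7 had a library that lay far from the others by Dixon's criterion, and chance marks about 1 in 20 groups. Among the onset libraries D3 B was high for Alas1 in LSEC-like cells, at 32.3 CPM (19 UMIs) against 15.3 to 16.1 CPM, and for Uros in macrophage-like cells, at 8.02 CPM (26 UMIs) against 3.92 to 4.38 CPM. Among the progression libraries Ppox in hepatocyte-like cells was at 13.1 CPM (22 UMIs) in D25 B against 3.51 to 6.89 CPM, and Fech in LSEC-like cells at 72.4 CPM (104 UMIs) in D9 B against 50.9 to 58.5 CPM. Alas2 stood out in D25 A through 1 UMI each, at 1.75 CPM in hepatocyte-like, 0.205 CPM in Kupffer cell-like and 0.0747 CPM in macrophage-like cells.

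Barcodes of 1 to 99 UMIs, which no comparison of cells uses, held Alas1 at up to 48.5 CPM under DDC (D19 A), above the 10.6 and 17.6 CPM of the D0 libraries.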

How the results depend on the processing

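No heme gene was called in any of the 10 diet comparisons by edgeR or DESeq2, with any 1 library left out (0 in each such fit) or without the replicate block, and 4 other fits made calls. With cells named singly, progression against onset in hepatocyte-like cells called 3 genes (Alas1, Alad and Fech; 798 over all genes, against 8), and without the low-count filter DDC against D0 in macrophage-like cells called 1 (Alas1) and progression against onset in LSEC-like cells 1 (Cpox), as did DDC against D0 in the marker-rich hepatocyte-like cluster, 1 (Alas1), a setting chosen after seeing the data. Levels between types gave 51 calls, 50 to 55 with 1 library left out, 49 without the replicate block (the library) and 33 with cells named singly. With cells named singly the log2 difference reversed between hepatocyte-like and Kupffer cell-like cells for Uros (-0.090), Nrf1 (0.049) and Bach1 (0.052), and between hepatocyte-like and BEC-like cells for Alad (-0.16), Uros (-0.17), Cpox (-0.17), Flvcr1 (0.011) and Nrf1 (0.19). Tfrc in Kupffer cell-like cells ranged from -1.72 to 1.62 for DDC against D0 with 1 library left out, the positive value being that without D0 A. Without thinning the share of macrophage-like cells with an Alas1 UMI was 40.2%. The causes were not tested.

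The replicate block of the diet fits is the isolation protocol, which the replicate numbers stand for. Over all genes, DDC against D0 called 32 genes in hepatocyte-like cells (0 without the replicate block, 219 without the low-count filter, 90 by DESeq2), 241 in Kupffer cell-like (7 without D0 A, 703 without the filter), 441 in macrophage-like (140 with cells named singly, 1192 without the filter), 146 in BEC-like (2 without D25 A, 1555 without the filter) and 18 in LSEC-like cells (0 without D0 B, 350 without the filter). STOP against D19 B gave 14 to 18 intervals that exclude 1. The fits of hepatocyte-like cells with 3000 UMIs or 50 cells, and those without D0 A in hepatocyte-like and BEC-like cells, could not be made, because no D0 library remained. With 1 or 2 D0 libraries and 36 marker-rich D0 hepatocyte-like cells, the number of D0 cells limits the comparisons in hepatocyte-like cells.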
